A study of Mus musculus with 24 samples.

Results

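The 10 granulocyte and precursor genes Mpo, Elane, Prtn3, Camp, Ngp, Ltf, Lcn2, S100a8, S100a9 and Chil3 were followed through 24 libraries of splenic Tconv CD4+ cells, out of 55414 genes listed. They were selected on earlier results of these libraries, in which genes of this kind fell far on activation, so their values and calls are given as a description and nothing is read from the calls. The cells came from conplastic mice, all with a C57BL/6J nucleus and with either the mtDNA of C57BL/6J (mtDNA B6, labelled WT) or that of the NZB strain (mtDNA NZB, labelled NZB). Tconv CD4+ cells (CD4+ CD25-, labelled TE) were purified with magnetic beads, first by removing cells other than CD4+ cells and then by removing CD25+ cells. They were profiled at rest (RES) or after 72 h with CD3/CD28 beads plus the cytokine IL2 (ACT). The beads stand in for antigen and costimulation. The paper gives no time in culture for the resting cells, so beads, IL2 and culture cannot be told apart in what is called activation here. Each of the 4 groups held 6 libraries. The paper gives mostly young adult males for its experiments, and whether each library came from its own mouse is not given in the sources used here, so errors measure the spread between libraries.

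Neutrophil granulocytes are made in the bone marrow from promyelocytes and myelocytes, and granule proteins are transcribed in waves during that passage. Azurophil (primary) granule genes such as Mpo, Elane and Prtn3 are transcribed at the promyelocyte stage, specific (secondary) granule genes such as Camp, Ngp, Ltf and Lcn2 at the myelocyte and metamyelocyte stage, and S100a8 and S100a9 are carried on into the mature cell, in which the transcripts of azurophil genes have largely gone. CD4+ T cells are not known as a source of these granule proteins, and the mouse spleen holds both mature neutrophils and sites of granulocyte and red cell production.

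All 10 genes are protein coding, and none overlapped another gene over its last 1000 bases in the GRCm39 annotation, the part of the transcript that was counted. Prtn3 (chr10:79710310-79719008) and Elane (chr10:79722081-79724051), serine proteases of the azurophil granule, lie 3072 bases apart on the same strand with no coding gene between them. S100a8 (chr3:90567118-90578128) and S100a9 (chr3:90599931-90603071), the subunits of calprotectin, lie 21802 bases apart on opposite strands. Camp (chr9:109676442-109678685), Ngp (chr9:110248815-110252086) and Ltf (chr9:110848339-110871835) share chromosome 9, with 8 coding genes between Camp and Ngp. Mpo (chr11:87684407-87695239), Lcn2 (chr2:32274645-32278264) and Chil3 (chr3:106054870-106074880) complete the group. Chil3 has a close paralog, Chil4, so its counts could be divided between copies.

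The start of each promoter was read for short motifs of factors that act in granulocyte development. The window ran from 250 bases before to 50 bases after the start of the annotated canonical transcript in GRCm39, and both strands were searched. The PU.1 core GAGGAA was found in 6 of the 10 promoters and in 27.5% of 21757 protein-coding promoters. The C/EBP motif TTGCNNAA was found in 5 of the 10 and in 10.7% of all, and the RUNX motif TGTGGT in 2 of the 10 and in 15.3% of all. No match overlapped a match to another motif. In these windows the 3 azurophil genes held the PU.1 core and no C/EBP match, the 4 specific granule genes each held a C/EBP match, and the motifs were not divided cleanly by class, since Ltf and Lcn2 also held the PU.1 core and Mpo also held a RUNX match. S100a9 held a C/EBP and a RUNX match, S100a8 held the PU.1 core, and Chil3 held none of the motifs. Matching letters do not show that a factor binds. The following windows, 30 bases in the direction of the gene with the match in capitals, are the PU.1 matches nearest to the start site of the azurophil genes and all of the C/EBP matches.
Mpo, PU.1, chr11:87684374-87684403, plus strand: tgtggagagagaGAGGAAgttgcctttgtc
Elane, PU.1, chr10:79722049-79722078, plus strand: tcgtgtcccaggGAGGAAgtagggctgtgg
Prtn3, PU.1, chr10:79715394-79715423, plus strand: ccaaactggaagGAGGAAgtgggacccaca
Camp, C/EBP, chr9:109678772-109678801, minus strand: gttttaccccgTTGAGCAAtactggatatg
Ngp, C/EBP, chr9:110248727-110248756, plus strand: gtcctggtttaTTGCCCAAacctccttgcc
Ltf, C/EBP, chr9:110848274-110848303, plus strand: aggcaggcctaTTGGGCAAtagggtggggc
Lcn2, C/EBP, chr2:32277949-32277978, minus strand: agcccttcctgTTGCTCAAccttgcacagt
S100a9, C/EBP, chr3:90603246-90603275, minus strand: ggtaggctgtcTTGCTTAAgatttgggcgg
The matches in Camp and Ltf lie on the strand opposite to the gene.

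Libraries were made by bulk MARS-seq, which reads the 3′ end of polyadenylated RNA and counts each molecule once by its unique molecular identifier (UMI). Levels are given as CPM, UMI counts scaled to a common library total, after TMM scaling for differences in library composition. The libraries held 51409 to 6449395 UMI counts. Resting NZB replicate 2 was the smallest and resting NZB replicate 6 held the largest share of the 10 genes, and values that rest on them are given with and without them. The cells carried T cell RNA in every group, with Cd4 at 495 to 762 CPM in resting B6 libraries and 351 to 772 CPM in resting NZB libraries. The lowest Cd4 levels of the resting libraries were those of NZB replicates 2 and 6, at 351 and 408 CPM.

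Together the 10 genes made up a visible part of the resting libraries and almost none of the activated ones. Their summed level in resting B6 libraries ran from 745 to 8716 CPM with a median of 3370 CPM that lay between a high and a low set of libraries, and in activated B6 libraries from 8.83 to 86.3 CPM with a median of 25.5 CPM. In NZB cells it ran from 454 to 23148 CPM at rest, with a median of 924 CPM, and from 8.02 to 205 CPM after activation, with a median of 68.4 CPM. Leaving out any 1 resting B6 library moved that median to 1142 CPM (without replicate 1, 5 or 6) or 5598 CPM (without replicate 2, 3 or 4). Resting and activated libraries did not overlap in either haplotype. In counts, the 6 resting B6 libraries held 95847 molecules of these genes and the 6 activated ones 726. The NZB libraries held 66964 at rest, of which 58037 were in replicate 6, and 1048 after activation. In bulk RNA, fewer cells of a type and less RNA per cell cannot be told apart.

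**Figure D1:**
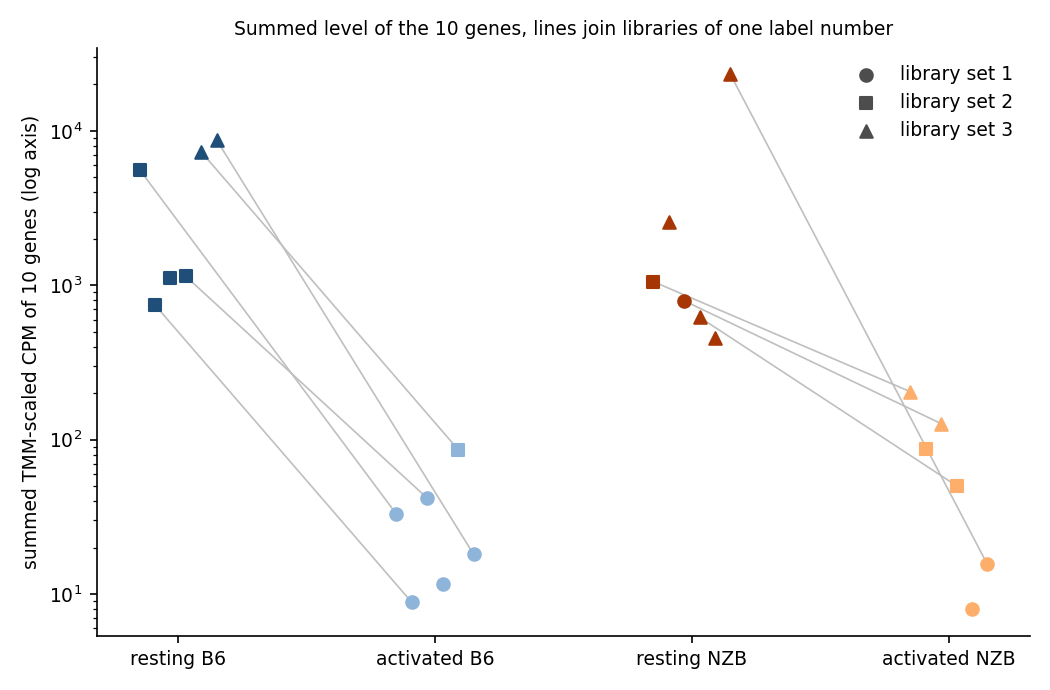
Summed TMM-scaled CPM of the 10 genes (log axis) in each of the 24 libraries by group, with marker shape giving the library set by reads per UMI and lines joining a resting and an activated library with the same label number. Every line falls, and resting NZB replicate 6, at 23148 CPM, stands above all other libraries.

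The resting libraries were not alike. In 4 of the 12 the summed level was between 5598 and 23148 CPM, namely B6 replicates 1, 5 and 6 and NZB replicate 6, and in the other 8 it was between 454 and 2559 CPM. The share of all UMI counts held by the 10 genes ran from 0.0686% to 0.865% in resting B6 libraries and from 0.0377% to 2.14% in resting NZB libraries. The highest summed level was 11.7 times the lowest among resting B6 libraries and 50.9 times among resting NZB libraries.

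Mpo, the myeloperoxidase of the azurophil granule, was at 69.1 to 586 CPM in resting B6 libraries (median 324) and at 3.05 to 21.1 CPM in activated ones (median 9.50). In NZB libraries it was at 64.8 to 966 CPM at rest (median 89.9) and at 1.54 to 18.2 CPM after activation (median 11.3). Resting and activated libraries did not overlap for Mpo, which was still counted in all 12 activated libraries. Elane, neutrophil elastase, went from 45.1 to 526 CPM at rest (median 259) to 0.609 to 5.35 CPM in B6 cells. The same gene was at 31.0 to 806 CPM in resting NZB libraries (median 57.0) and at 0 to 6.52 CPM in activated ones (median 3.20). Both states were well apart for it, although activated NZB replicate 5 held no count. Prtn3, proteinase 3, was at 63.2 to 798 CPM in resting B6 libraries (median 404) and at 1.90 to 12.5 CPM in activated ones (median 5.75). In NZB cells its level was 57.5 to 1161 CPM at rest (median 94.1) and 1.85 to 17.2 CPM after activation (median 7.91).

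Camp, the precursor of the antimicrobial peptide cathelicidin, was at 813, 112, 187, 172, 1639 and 1869 CPM in resting B6 replicates 1 to 6. The activated B6 libraries had 1.01, 0.305, 1.97, 0.844, 8.91 and 0 CPM. Replicates 1, 5 and 6 were thus high at rest, and replicate 5 was the highest after activation. In NZB cells Camp was at 173, 351, 166, 117, 63.9 and 3756 CPM at rest and at 32.9, 10.7, 18.9, 3.47, 1.23 and 0.292 CPM after activation, so that replicate 6 was the highest of the resting and the lowest of the activated libraries.

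Ngp, a protein of the specific granule related to cystatins and cathelin, was at 195 to 2582 CPM in resting B6 libraries (median 755) and at 0.609 to 16.8 CPM in activated ones (median 1.03). In NZB libraries it was at 109 to 7059 CPM at rest (median 268) and at 0.292 to 64.4 CPM after activation (median 16.2). The medians of activated libraries were further apart between haplotypes for Ngp than for the azurophil genes, but the libraries overlapped. Ltf, the iron-binding lactotransferrin, was at 53.0 to 790 CPM in resting B6 libraries (median 220) and had no count in 3 of the 6 activated ones, whose highest value was 4.08 CPM. It was at 36.5 to 1932 CPM in resting NZB libraries (median 71.7) and had a median of 4.77 CPM after activation. Lcn2, lipocalin 2, which binds bacterial siderophores, was at 66.2 to 992 CPM at rest and at 0.305 to 5.35 CPM after activation in B6 cells, against 35.1 to 2304 CPM and 0.584 to 21.5 CPM in NZB cells. A count of 0 in an activated library allows a level of up to 0.674 to 1.23 CPM in B6 cells and of 0.465 to 4.68 CPM in NZB cells (3 counts of the library total, counting error only).

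S100a8 and S100a9 form calprotectin, the calcium- and zinc-binding complex that is among the most abundant cytosolic proteins of neutrophils. S100a8 was at 68.2, 12.8, 18.1, 19.1, 185 and 209 CPM in resting B6 libraries and had no count in 3 of the 6 activated ones, whose highest value was 2.55 CPM. In resting NZB libraries it was at 13.9, 518, 20.4, 12.2, 4.56 and 350 CPM. The value of 518 CPM was that of the smallest library, where it stood for 31 counts. S100a9 was at 632, 90.5, 12.8, 7.79, 71.3 and 472 CPM in resting B6 libraries and at 48.2, 351, 3.01, 19.2, 37.4 and 4157 CPM in resting NZB libraries. It was at 0 to 7.13 CPM in activated B6 libraries and at 0.292 to 25.7 CPM in activated NZB libraries. S100a8 and S100a9 were the members for which resting and activated NZB libraries overlapped, whereas all 10 members were apart in B6 cells. Over all tested genes, 16.3% had every resting library above every activated one in B6 cells and 6.90% in NZB cells. Chil3, a secreted chitinase-like lectin of myeloid cells, was at 37.5 to 334 CPM in resting B6 libraries and at 14.6 to 656 CPM in resting NZB libraries, and its highest activated level was 5.72 CPM, in NZB replicate 1.

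**Figure D2:**
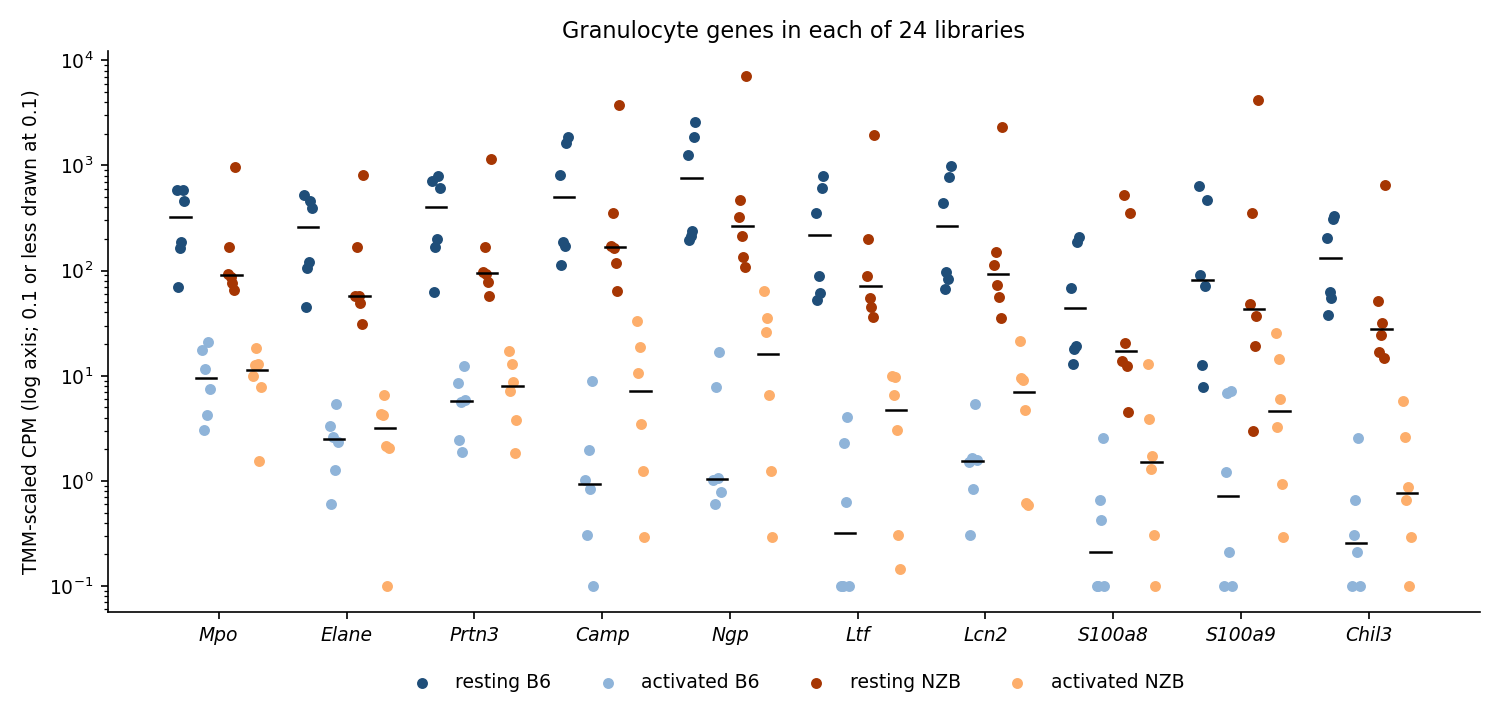
TMM-scaled CPM (log axis, 0.1 CPM or less drawn at 0.1) of each gene in the 24 libraries, 6 points and a median bar for each of 4 groups. For Ngp the resting points reach 7059 CPM and the activated points stay at or below 64.4 CPM, and the resting groups split into a high and a low set of libraries.

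The ratios between members show how far they moved as a unit. Over the 11 resting libraries with at least 500000 UMI counts, Elane had 0.540 to 0.742 counts for each count of Prtn3, and the highest ratio was 1.37 times the lowest, while Prtn3 itself ran from 57.5 to 1161 CPM. Mpo had 0.730 to 1.13 counts per count of Prtn3, Ltf 0.726 to 1.04 per count of Lcn2, and Ngp 1.15 to 1.88 per count of Camp. Within a granule class the ratios of these chosen pairs thus moved by at most 1.64 times. Between the classes they moved more: the 4 specific granule genes together had 1.10 to 5.13 counts for each count of the 3 azurophil genes, and the 2 highest ratios, 4.24 and 5.13, belonged to resting B6 replicate 6 and resting NZB replicate 6. Counts were taken from the last part of each transcript, and a ratio is read here only between libraries.

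S100a9 and S100a8 did not keep a constant ratio, although their proteins form one complex. S100a9 had 9.27, 7.05, 0.704, 0.408, 0.385 and 2.26 counts per count of S100a8 in resting B6 replicates 1 to 6. In the 5 deeper resting NZB libraries it had 3.45, 0.148, 1.57, 8.20 and 11.9. The highest ratio was 80.6 times the lowest, and high ratios were found in libraries with much granulocyte RNA (NZB replicate 6) and with little (B6 replicate 2, NZB replicate 5). Against Camp, S100a9 moved by 61.0 times. Retnlg, which encodes a resistin-like protein and was listed as a gene of mature neutrophils, was high in the same libraries. It was at 44.4, 36.9 and 36.3 CPM in resting B6 replicates 1, 2 and 6 and at 0.779 to 5.64 CPM in the others. In resting NZB libraries Retnlg was at 361 CPM (904 counts) in replicate 6, was represented by 29, 1, 3 and 22 counts in replicates 1, 2, 4 and 5, and had no count in replicate 3, where S100a9 was also at its lowest. The split was seen in both haplotypes and no haplotype held only high or only low ratios.

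**Figure D3:**
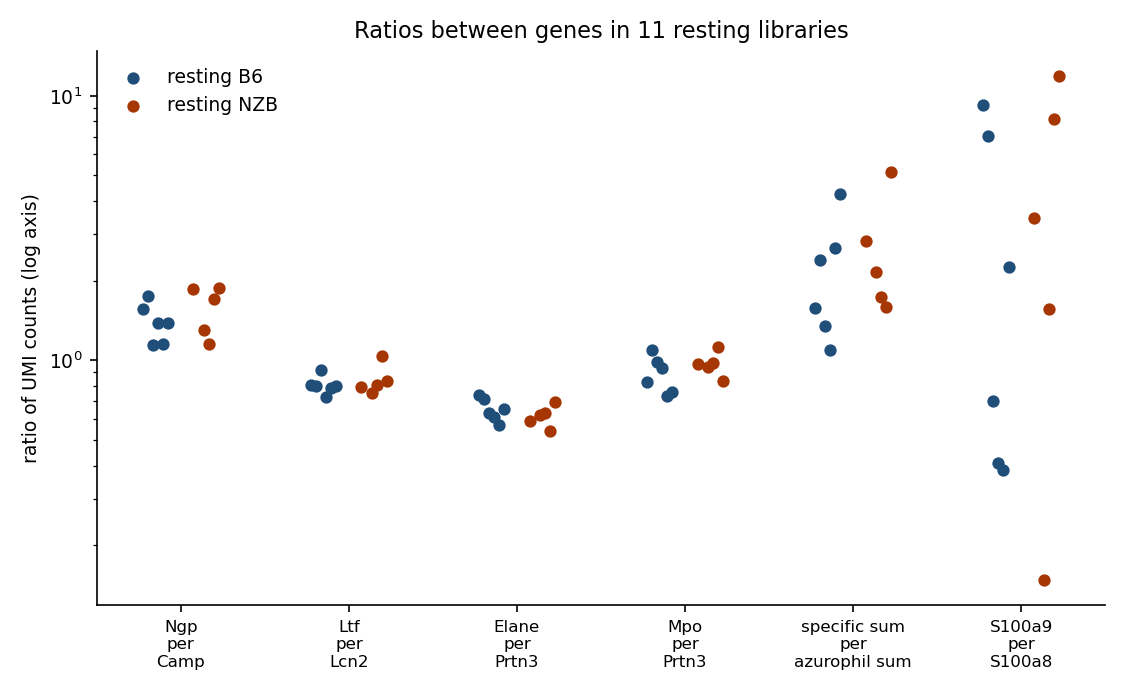
Ratios of UMI counts (log axis) between members in the 11 resting libraries of at least 500000 counts, blue for B6 and brown for NZB. The 4 ratios within a granule class lie in narrow bands, the ratio of specific to azurophil genes runs from 1.10 to 5.13, and that of S100a9 to S100a8 from 0.148 to 11.9.

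Pearson correlations of log2 CPM between members over these 11 libraries, given as a description, ran from 0.710 (Prtn3 and S100a9) to 0.998 (Mpo and Prtn3) with a median of 0.961 over 45 pairs. For S100a9 the highest was 0.828, with Ngp, and for pairs without S100a9 the lowest was 0.939. The points share the level of the whole group in each library. The 10 named genes outside the group whose log2 CPM was most like the mean of the members were Wfdc21, Fcnb, Cebpe, Septin5, Rab44, Pglyrp1, Cd63, Chi3l1, Ltb4r1 and Lrg1, with r of 0.992 down to 0.975. Of these, Septin5 and Rab44 were in none of the lists drawn up for this work, and Cebpe encodes the C/EBP epsilon factor that directs specific granule gene transcription. Leaving out the libraries farthest from the median (resting NZB replicate 6 and resting B6 replicate 6) gave r of 0.951 to 0.986 for these 10. Over the 12 activated libraries r was 0.876 for Wfdc21, 0.912 for Lrg1 and 0.756 for Chi3l1, and between -0.276 and 0.502 for the other 7.

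Activation of B6 cells was compared first (activated minus resting, fit of all 24 libraries). The log2 fold change was -4.97 ± 0.73 (SE, n = 6 and 6) for Mpo, -6.71 ± 0.90 for Elane and -6.10 ± 0.83 for Prtn3. For the specific granule genes it was -8.42 ± 1.28 (Camp), -7.79 ± 1.33 (Ngp), -8.03 ± 1.28 (Ltf) and -7.72 ± 1.22 (Lcn2). S100a8 had -6.97 ± 1.31, S100a9 -6.38 ± 1.57 and Chil3 -7.93 ± 1.14. All 10 members were tested and 10 were called, meaning that the adjusted p did not exceed 0.05 and the log2 change was 1 or more in either direction, where 10.6% of 10566 tested genes were called lower and 7.06% higher. The median log2 change of all tested genes was -0.03. Since the members were selected on falls of this kind, nothing is read from this count.

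Activation of NZB cells gave falls of the same order in the fit of 24 libraries. The log2 fold change was -4.59 ± 0.75 for Mpo, -6.05 ± 0.92 for Elane, -5.29 ± 0.83 for Prtn3, -6.56 ± 1.17 for Camp, -6.28 ± 1.24 for Ngp, -6.70 ± 1.18 for Ltf and -6.43 ± 1.14 for Lcn2. It was -5.78 ± 1.25 for S100a8, -7.08 ± 1.57 for S100a9 and -7.18 ± 1.14 for Chil3, and 10 of the 10 were called, where 14.0% of genes were called lower and 9.46% higher. The size of these values rests on resting NZB replicate 6. Without that library they were -2.56 (S100a9) to -4.92 (Chil3). In the fit of 21 libraries, which leaves out resting NZB replicates 2 and 6 and activated NZB replicate 6, they were -1.78 ± 1.16 for S100a9, -2.34 ± 1.00 for S100a8 and -2.85 to -4.51 for the other 8, which were the ones called, where 14.6% of genes were called lower.

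Of the 9 pairs of a resting and an activated library that carry the same label number, 8 had all 10 members higher at rest and 1 had 9, the exception being S100a9 in NZB number 19, at 3.01 CPM at rest and 14.3 CPM activated. The summed level at rest was 27.3 to 481 times that after activation in the 5 B6 pairs. In the NZB pairs it was 5.15, 6.24 and 12.3 times higher for numbers 11, 19 and 21 and 1483 times higher for number 8, the pair that holds resting replicate 6.

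The libraries also fell into 3 sets by reads per UMI, which were divided from the data and are not described by the labels. Among activated libraries the summed level of the 10 genes was 8.02 to 41.8 CPM in the 7 libraries of set 1, 50.3 to 86.4 CPM in the 3 of set 2 and 127 to 205 CPM in the 2 of set 3, without overlap. Both activated libraries of set 3 were NZB (replicates 1 and 3), and 5 of the 7 libraries of set 1 were B6. Within set 1 the 5 B6 libraries had 8.83 to 41.8 CPM and the 2 NZB libraries 8.02 and 15.6 CPM, and within set 2 the B6 library had 86.3 CPM and the 2 NZB libraries 50.3 and 86.4 CPM. Resting levels stayed above activated levels inside each set, but the 2 states of B6 cells met only in set 2, through 1 activated library. Set 1 held 1 resting library, an NZB one, and set 3 held no activated B6 library. Resting NZB libraries of set 3 had 454 to 23148 CPM against 127 to 205 CPM for the activated ones, and resting B6 libraries of set 2 had 745 to 5598 CPM against 86.3 CPM. The part of the library sets in the levels of activated cells was not tested beyond a fit with the set as a term, in which 9 members were called on activation of B6 cells, all but S100a9, and 10 on activation of NZB cells, where 16.6% and 22.8% of genes were called in either direction. In that fit the median log2 change of the members on activation of B6 cells was -5.40, against -7.34 without the term.

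**Figure D4:**
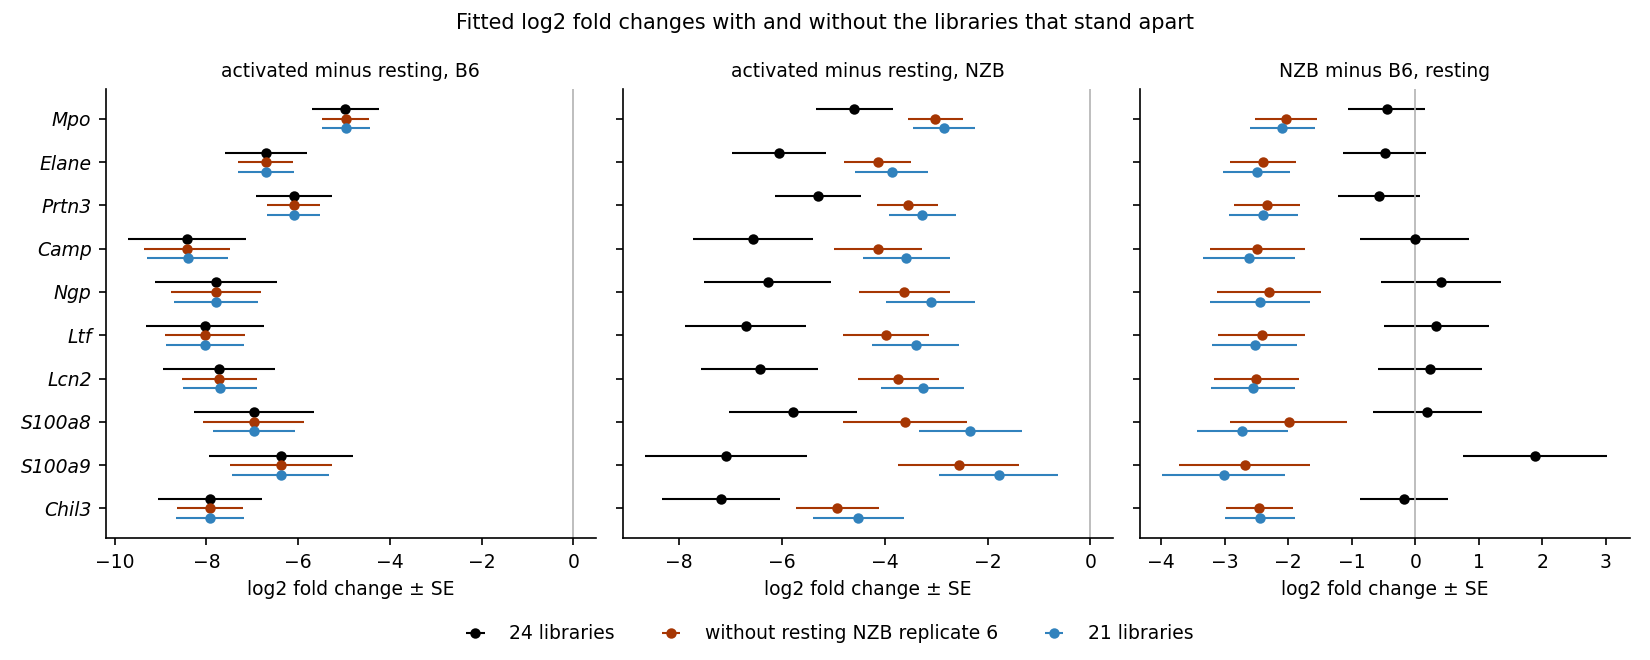
Fitted log2 fold change with its standard error for each gene in 3 comparisons, over 24 libraries (black), without resting NZB replicate 6 (brown) and over 21 libraries (blue). The libraries left out were all NZB, so B6 activation keeps the same B6 libraries in each fit and hardly moves. The median of NZB activation goes from -6.35 to -3.26 over 21 libraries, and that of the resting comparison from 0.09 to -2.51.

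The comparison of NZB with B6 cells at rest turned most on 1 library. In the fit of 24 libraries the log2 difference was -0.45 ± 0.60 for Mpo, -0.48 ± 0.65 for Elane, -0.57 ± 0.64 for Prtn3, -0.01 ± 0.86 for Camp, 0.41 ± 0.94 for Ngp, 0.33 ± 0.82 for Ltf and 0.23 ± 0.82 for Lcn2. It was 0.19 ± 0.85 for S100a8, 1.89 ± 1.14 for S100a9 and -0.18 ± 0.69 for Chil3, and 0 of the 10 were called, where 1.01% of genes were called. By medians of the 6 libraries the 10 members were lower in NZB cells, with Ngp at 268 against 755 CPM and Mpo at 89.9 against 324 CPM. A term for the library set moved the median log2 difference of the members from 0.09 to -0.26, with 8 of the 10 lower in NZB cells. In that fit 0 members and 0.00946% of genes were called. Without resting NZB replicate 6 the differences were -1.99 (S100a8) to -2.68 (S100a9), and 6 members (Mpo, Elane, Prtn3, Ltf, Lcn2 and Chil3) were called, where 2.27% of genes were called lower. Over 21 libraries they were -2.09 ± 0.51 for Mpo to -3.01 ± 0.97 for S100a9, and 8 members, all but Ngp and S100a9, were called, where 2.51% of genes were called lower. These fits keep B6 replicates 1, 5 and 6, whose summed levels of 5598, 7301 and 8716 CPM were the next highest after that of NZB replicate 6, and the size and direction of the haplotype difference at rest depended on which libraries were kept. The comparisons share groups, since the resting libraries enter both the activation and the resting contrasts.

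After activation the log2 difference between NZB and B6 cells was 1.86 ± 1.38 for Camp, 1.93 ± 1.27 for Ngp, 1.66 ± 1.68 for Ltf and 1.52 ± 1.46 for Lcn2. It was -0.07 ± 0.77 for Mpo, 0.18 ± 1.18 for Elane and 0.24 ± 0.91 for Prtn3. No member was called and the libraries overlapped for all 10 (0.0568% of genes did not overlap), where 0% of genes were called by edgeR (327 genes had an unadjusted p under 0.05) and DESeq2 also called 0. With the library set as a term the direction turned, from a median of 1.28 with 1 of the 10 members lower in NZB cells to a median of -0.36 with 9 lower. The difference between the responses to activation was 1.87 ± 1.63 for Camp, 1.51 ± 1.58 for Ngp, 0.38 ± 0.98 for Mpo and -0.70 ± 2.27 for S100a9. By edgeR 0 members and 0% of genes reached an adjusted p of at most 0.05 (1512 genes had an unadjusted p under 0.05), and DESeq2 called 1 gene and no member. With the library set as a term its median over the members was 0.11, against 1.00 without it. Over 21 libraries the difference was 2.12 ± 0.79 for Mpo to 4.84 ± 1.26 for Camp. All 10 estimates were on the side of a smaller fall in NZB cells. Among the libraries left out there were resting NZB replicate 6 (summed level 23148 CPM) and activated NZB replicate 6 (15.6 CPM). The high resting B6 libraries were kept, so nothing is read from the shared direction. None of the 10 members was called over 21 libraries, where 1.04% of genes were called.

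Pooled over the 6 activated B6 libraries, 220 molecules of specific granule genes were counted against 424 of azurophil genes, a ratio of 0.519, where the resting B6 libraries had 2.44. By library it was 1.10 to 4.24 at rest and 0.121 to 0.902 after activation in B6 cells, without overlap. The activated B6 values rested on 4 to 138 specific granule counts. Library set 1 held 5 activated B6 libraries and no resting one, so state and set cannot be fully told apart in the ratios of B6 cells. The pooled ratio in NZB cells was 4.37 at rest, or 2.16 without replicate 6, and 1.44 after activation, and resting and activated NZB libraries overlapped. It varied between activated libraries from 0.0957 in NZB replicate 6 (set 1) to 4.09 in NZB replicate 1 (set 3). The 6 activated NZB libraries did not share a common value. Among the azurophil genes Mpo had 1.79 counts per count of Prtn3 in activated B6 cells against 0.791 at rest. Ctsg, cathepsin G of the same granule, had 3.29 against 0.349, and its level in activated B6 libraries was 2.74 to 51.2 CPM.

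Other genes of the granulocyte lineage, which were not members, were counted in the same fits. Of 32 genes in a precursor list and a mature neutrophil list, 25 passed the filter on low counts. On activation of B6 cells 22 of these were called lower and 1 higher, and on activation of NZB cells 23 lower and 1 higher, where 10.6% and 14.0% of all genes were called lower, with a median log2 change of -4.76 and -4.10. The NZB median was -2.62 without resting NZB replicate 6 and -2.87 over 21 libraries, with 21 called lower in each. The lists were drawn up with earlier results of these libraries known. A gene that is low after activation can also pass the filter through its resting libraries alone, so nothing is read from these counts of calls. Hp (haptoglobin) fell by 6.91 ± 0.81 on the log2 scale in B6 cells (adjusted p = 1.97e-07, edgeR) and Fcnb (ficolin B) fell by 7.14 ± 1.16 (adjusted p = 1.68e-05, edgeR). Ctsg fell by 2.86 ± 0.68 (adjusted p = 0.00121, edgeR). Among genes of mature neutrophils, Wfdc21 fell by 6.83 ± 1.18, Fcgr3 by 3.05 ± 0.54 and Slpi, a secreted inhibitor of elastase, by 1.69 ± 0.43 (adjusted p of 3.91e-05, 5.16e-05 and 0.00217, edgeR). Itgam, the integrin alpha M, had a log2 change of -3.65 ± 0.49. The gene called higher was Cst7 (cystatin F), which T cells and NK cells also express, with a log2 change of 1.14 ± 0.22 in B6 and 1.14 ± 0.24 in NZB cells. Retnlg had 429 counts in resting B6 libraries and 1 in activated ones, and 959 and 2 in NZB libraries.

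Of 9 transcription factors of granulocyte development 8 were tested, with a median log2 change of -2.28 in B6 cells. Cebpb fell by 2.74 ± 0.19 on the log2 scale in B6 cells and by 2.14 ± 0.20 in NZB cells, and Spi1, which encodes PU.1, fell by 2.21 ± 0.40 and 2.40 ± 0.41. Runx1, which T cells also use, fell by 1.22 ± 0.12 in both. Cebpe was at 7.90 to 60.2 CPM in resting B6 libraries, at 4.11 to 104 CPM in resting NZB libraries and at 0 to 1.53 CPM in activated ones. Irf8, which turns progenitors towards the monocyte fate and is also expressed by activated lymphocytes, rose by 1.28 ± 0.24 in B6 cells (adjusted p = 0.000102, edgeR) and had a log2 change of 1.00 ± 0.25 in NZB cells, just short of the fold limit. In all 6 of the 8 were called lower in each haplotype, where 10.6% of all tested genes were called lower in B6 and 14.0% in NZB cells.

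At rest none of the 25 tested granulocyte genes outside the group was called between haplotypes in the fit of 24 libraries, with a median log2 difference of -0.12. Without resting NZB replicate 6, 12 were called lower in NZB cells and none higher, with a median of -1.52, where 2.27% of all genes were called lower, and over 21 libraries 9 were called lower and none higher, where 2.51% of all genes were. Fcnb had -2.68 ± 0.55 (adjusted p = 0.00919, edgeR), Ctsg -2.35 ± 0.61 (adjusted p = 0.0265) and Hp -1.72 ± 0.49 (adjusted p = 0.0427) over 21 libraries by edgeR. These are the same libraries that gave the members' values.

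Monocyte and macrophage genes and erythroid genes were also lower in activated libraries, whereas genes of other cell types did not share 1 direction. The summed level of 11 monocyte and macrophage genes was 808 to 2623 CPM in resting B6 libraries and 18.0 to 76.4 CPM in activated ones, and 418 to 2718 CPM and 8.02 to 109 CPM in NZB libraries. Of the 6 tested, 6 were called lower on activation of each haplotype, with Lyz2, the lysozyme that neutrophils also express, at -6.29 ± 0.72 in B6 and -5.12 ± 0.70 in NZB cells (log2). Over all tested genes 10.6% were called lower on activation of B6 cells and 14.0% on activation of NZB cells. The 11 erythroid genes summed to 896 to 8029 CPM in resting B6 libraries and 327 to 4551 CPM in resting NZB libraries, against 39.5 to 367 CPM and 33.3 to 99.1 CPM after activation, and 10 of 11 were called lower in each haplotype. In the fit of 24 libraries 1 of the 11 erythroid genes was called lower in resting NZB than in resting B6 cells. Over 21 libraries all 11 were called lower, where 2.51% of all genes were, so this count depended on which libraries were kept. The erythroid order of resting B6 libraries was not that of the granulocyte genes: Hbb-bs, a beta globin, was at 4053 CPM in replicate 1 and at 79.6 CPM in replicate 6, which had the highest summed level of granulocyte genes. Of 10 eosinophil, basophil and mast cell genes, 6 were tested, and Prg2, the eosinophil major basic protein, had a log2 change of -4.73 ± 0.65 in B6 cells, while the basophil proteases Mcpt8 and Prss34 had 2.21 ± 0.57 and 2.03 ± 0.66 there and 0.45 ± 0.63 and -0.02 ± 0.71 in NZB cells. The difference between haplotypes was not called for either protease, with adjusted p of 0.347 for Mcpt8 and 0.334 for Prss34 (edgeR).

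The 10 T cell identity genes summed to 3499 to 5389 CPM in resting B6 and 4762 to 5391 CPM in activated B6 libraries, and none of the 10 was called in either haplotype. The lowest sum was 3380 CPM, in resting NZB replicate 6. The 8 B cell genes summed to 8544 to 13197 CPM at rest and 2440 to 6274 CPM after activation in B6 cells, of which Ighm, the IgM heavy chain, was the 1 gene called, at -1.58 ± 0.34 (log2). Ighm, at a mean of 10651 CPM over the resting libraries, made up most of the resting sums. The median log2 change of the 8 genes on activation was 0.04 in B6 and -0.33 in NZB cells. Of 5 CD8 T and NK cell genes 4 were tested, 2 called higher and 1 lower in each haplotype, with Cd8a at 2.35 ± 0.42 (log2) in B6 cells. Of 6 stem and progenitor genes 2 were tested, and Kit was at -3.67 ± 0.39. Il2ra, the CD25 chain, rose by 4.68 ± 0.38 on activation of B6 cells, one of 4 of 6 T cell activation genes called higher, and Cd69 fell by 3.72 ± 0.42. Over all tested genes 10.6% were called lower and 7.06% higher on activation of B6 cells, and 14.0% and 9.46% on activation of NZB cells. No gene of any list was at 0 in every library. The part of monocyte, erythroid and other RNA in the levels of the 10 genes was not tested.

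**Figure D5:**
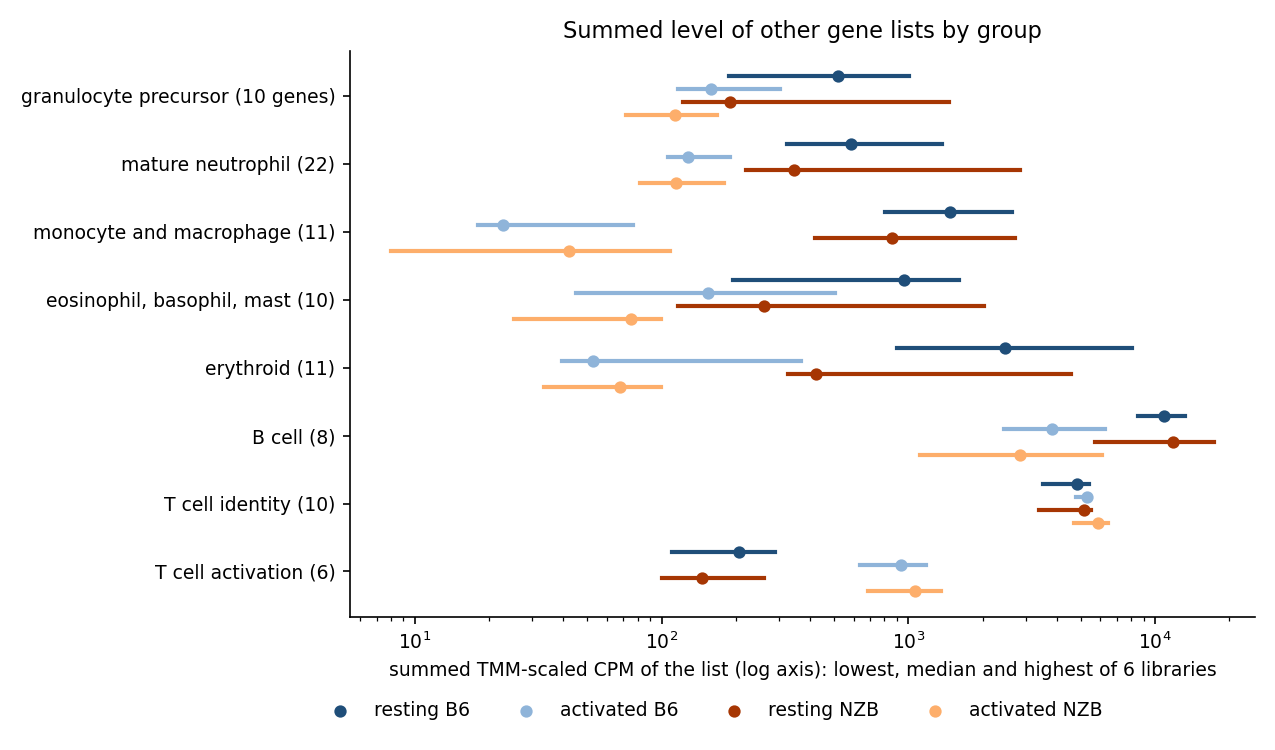
Summed TMM-scaled CPM (log axis) of 8 other gene lists, with the line from the lowest to the highest of 6 libraries and the point at the median for each of 4 groups. Monocyte and erythroid lists are lower in both activated groups, T cell identity genes stay within 3380 to 6438 CPM, and T cell activation genes are higher in activated cells.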

How the data were processed

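RNA of 24 Tconv libraries, 6 for each haplotype and state, was analysed, with groups taken from the labels. According to the paper, the authors trimmed reads with cutadapt, mapped them with STAR to the last 1000 bases of genes of GRCm39 (Ensembl 106), counted them with htseq-count, counted each UMI once and corrected for saturation. They deposited these whole-number counts and a second table of larger counts, taken here as reads before UMI deduplication and used as an alternative. The labels and the paper give different RNA inputs and kits. 1 column matched no sample and was not used.

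Counts were scaled by TMM and fitted with edgeR 4.0.16 (R 4.3.3) in 4 groups, after filterByExpr, which left 10566 genes. Calls by its quasi-likelihood test needed a Benjamini-Hochberg p, adjusted across the tested genes, not above 0.05 and a log2 change of 1 or more in either direction, with no fold limit for the difference between responses. The standard error is the log2 change divided by the square root of F. Totals of 51409 to 6449395 counts set the precision. The fit was tested on simulated data. Correlations used log2 CPM with a prior count of 2. Alternatives were DESeq2 1.42.0, other scaling, filters, tables, blocks and libraries. Members and lists were chosen with earlier results of these data known. From each other list up to 4 called genes were named, by mean resting CPM, and others were named after their values were seen. Promoters were read from the GRCm39 genome with GENCODE transcripts.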

Additional observations from a re-analysis of the deposited data

Results flagged for a closer look

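A library was set apart when its gap to the nearest other library of its group exceeded 0.625 of the group's range. Of 44 groups of 6 libraries (10 genes and their sum in 4 groups), 15 held such a library. Chance gives about 1 in 20 for normally distributed values. The CPM were not put on a log scale and the genes are not independent, so the 15 cannot be set against that rate. Resting NZB replicate 6 was far above the others for 9 genes. It had 966 CPM of Mpo (next highest 167), 806 CPM of Elane (167), 1161 CPM of Prtn3 (167), 3756 CPM of Camp (351), 7059 CPM of Ngp (468), 1932 CPM of Ltf (201), 2304 CPM of Lcn2 (151), 4157 CPM of S100a9 (351) and 656 CPM of Chil3 (51.8). The sum of the 10 genes there was 23148 CPM, against 2559 CPM in replicate 2. S100a8 did not stand apart in that library, since resting NZB replicate 2 was higher.

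Among activated B6 libraries replicate 5 stood apart for Camp (8.91 CPM), Lcn2 (5.35 CPM), S100a8 (2.55 CPM) and Chil3 (2.55 CPM). It was the only activated B6 library of library set 2, the other 5 being of set 1. Among activated NZB libraries replicate 1, the smallest of that group with 641467 UMI counts, stood apart for S100a8, at 12.9 CPM against 3.90 CPM in the next.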

How the results depend on the processing

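Over all alternatives, 290 values stayed within 1.5 times the count, or within 1 SD of the summed level, and 5 counts moved, all in fits that left out resting NZB replicate 6. Many of these counts were 0 or all 10 members, and the tally does not follow the size or direction of fitted differences. With the library set as a term the median log2 difference of the members between activated NZB and B6 cells went from 1.28 to -0.36. The SD of the resting sums is wide, and the median summed level of resting B6 libraries went from 3370 to 1142 or 5598 CPM when 1 of them was left out. Members called between haplotypes at rest went from 0 to 8 over 21 libraries, and other granulocyte genes called from 0 to 9. Leaving out 1 library at a time gave 0 to 6 members and 0 to 12 other genes at rest, the highest values being those without resting NZB replicate 6, 9 to 10 members on activation of NZB cells, 10 on activation of B6 cells and 0 in the other comparisons. Fitted with a replicate block by label number, 10 members were called on activation of B6 cells, 9 on activation of NZB cells and 0 for the difference between responses, where 16.9%, 18.5% and 0% of genes were called. With the same paired block over 21 libraries, 5 members (Camp, Elane, Lcn2, Mpo and Prtn3) were called for that difference, where 0.0739% of genes were called. The cause was not tested. The labels do not say what the number marks, and the correlation of the deviations of same-numbered libraries from the group means ran from -0.158 to 0.253 over 9 pairs, so the fits of the report hold no block for it. Depth limits activated libraries most, with 26 to 390 counts of the 10 genes in each, and resting NZB replicate 2, with 153.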
